A study of Mus musculus with 2 samples.

Results

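The genes of the tumor necrosis factor (TNF) superfamily, its ligands and their receptors, were read in cultures grown from basal cells of the mouse mammary gland, 1 with added TNF-α and 1 without. Members were taken by gene name (Tnf, Lta, Ltb, Fas, Fasl, Cd40, Cd40lg, Ltbr, Ngfr, Cd27, Cd70, Edar, Eda2r and every numbered Tnfsf or Tnfrsf gene, antisense genes and pseudogenes left out), which gave 44 of the 49492 genes counted. They were 17 ligands and 27 receptors, and all 44 are protein coding in GENCODE M21. The cells came from adult female wild-type mice, were FACS sorted as basal cells (CD24+CD29hi, without CD45, CD31 or TER119), and were then cultured in 3D for 10 days in a medium with EGF and insulin-transferrin-selenium. In 1 culture recombinant mouse TNF-α was present at 10 ng/mL, and the control culture had none. How many animals were pooled is not given in the sources used here. Each condition had 1 library, so within these data no difference has a replicate check and no test between conditions was possible.

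TNF superfamily ligands are mostly trimers anchored in the membrane of the cell that makes them, and some are shed by proteases such as Adam17. A ligand trimer gathers receptors on the responding cell. Receptors with an intracellular death domain can bind adaptors such as FADD and TRADD, the other signalling receptors recruit TRAF proteins and lead to NF-κB and MAP kinases, and decoy receptors bind a ligand without passing the signal on. TNF-α itself binds the widely expressed receptor encoded by Tnfrsf1a, which has a death domain, and the receptor encoded by Tnfrsf1b, which has none and is known for its inducible expression. In the mammary gland the family is best known for RANKL (Tnfsf11), which passes the progesterone signal from luminal cells to their neighbors.

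The 3 members with the highest ratios in the TNF-α library were Tnfrsf9, Tnfrsf1b and Tnf, and the 250 bases before their RefSeq start sites (GRCm38.p6) are shown because these are the stretches just upstream of where transcription of these members is annotated to begin. They are written 5′ to 3′ on the strand of the gene, with capitals for matches to any of 4 motifs searched on both strands. These were the NF-κB consensus, the TATA box (TATAAA), the AP-1 motif (TGANTCA) and an interferon response motif (GAAANNGAA). Of the 2 Tnfrsf9 starts in RefSeq the downstream one is shown, since the other held no match.
Tnf (chr17:35202008-35202257, minus strand): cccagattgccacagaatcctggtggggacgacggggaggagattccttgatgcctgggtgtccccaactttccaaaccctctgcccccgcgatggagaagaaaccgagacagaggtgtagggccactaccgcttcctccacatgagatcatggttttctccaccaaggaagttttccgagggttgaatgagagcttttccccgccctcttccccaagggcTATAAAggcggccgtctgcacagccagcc
Tnfrsf1b (chr4:145246871-145247120, minus strand): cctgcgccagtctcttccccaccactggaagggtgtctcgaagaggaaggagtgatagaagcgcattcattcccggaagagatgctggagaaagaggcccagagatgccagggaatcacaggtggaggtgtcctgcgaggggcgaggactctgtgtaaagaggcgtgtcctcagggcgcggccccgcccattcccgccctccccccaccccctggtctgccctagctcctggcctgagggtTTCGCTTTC
Tnfrsf9 (chr4:150927749-150927998, plus strand): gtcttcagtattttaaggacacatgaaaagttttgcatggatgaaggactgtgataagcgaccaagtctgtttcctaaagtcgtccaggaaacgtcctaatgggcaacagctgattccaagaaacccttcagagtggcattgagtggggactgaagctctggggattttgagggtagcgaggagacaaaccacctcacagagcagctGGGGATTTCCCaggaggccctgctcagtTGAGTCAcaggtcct

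In the Tnf stretch the capitals are a TATA box match that begins at -29 from the start. In Tnfrsf1b they are a match to the interferon motif on the opposite strand, from -9 to -1. In Tnfrsf9 the run from -43 to -33 holds an NF-κB match from -43 to -34. It overlaps one from -42 to -33 that is read on both strands, and an AP-1 match follows from -15 to -9. RefSeq promoter entries were found for 34 of the 44 members. An NF-κB match stood in 3 of the 38 promoter entries of members, namely for Tnfrsf9, Ltb and Tnfrsf8. Of the 32851 promoters of all genes, 3.90% held one. Ltb and Tnfrsf8 fell short of the 10 counts in sum asked for below. Of the 9 members with an entry that are called higher below, 1 held a match, Tnfrsf9. For the TATA box, the AP-1 motif and the interferon motif the shares of all promoters were 12.4%, 6.75% and 7.13%, and 7, 6 and 6 of the 38 promoter entries of members held them. A match is a run of letters and not a measured binding site, and a factor may bind outside these 250 bases.

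Counts summed to 44462275 in the control and 53487087 in the TNF-α library. Library sizes were scaled by the TMM method. The call rule asked that the ratio of a gene's counts scaled to library size (CPM) pass 2-fold and that its 95% Clopper-Pearson interval leave out a ratio of 1. With 1 library per condition these intervals cover counting error only. They can be too narrow even for that, because amplified reads that carry no molecular identifier need not be separate molecules. Reads counted in pairs would make them too narrow as well. The rule was applied to the 20771 genes with at least 10 counts in sum, which are called tested here. The basal markers Krt14 and Krt5 had 229766 and 109438 counts in the control and 259922 and 146872 with TNF-α. The luminal keratins Krt8 and Krt18 were read too, at 27600 to 60420 counts. The log2 ratios of the summed CPM were -0.13 for 8 basal, -0.48 for 8 luminal, -0.07 for 5 endothelial and -0.04 for 6 fibroblast markers. These sums are carried by the most abundant genes, and the median log2 ratios of single markers were -0.14, -0.89, -0.24 and 0.10. All 8 luminal markers were below 0, the basal marker Oxtr was called lower at -1.19, and the fibroblast marker Dcn was called higher at 1.39 while Col3a1 had -0.66. Of 17 leukocyte markers, 7 were at 3 counts or fewer in both libraries (among them Cd3e, Cd3g, Cd8a, Ms4a1 and Nkg7, which define T, B and NK cells), and the pan-leukocyte gene Ptprc had 26 counts in the control and 38 with TNF-α. Among myeloid markers of the list, Adgre1 had 0 counts in the control and 2 with TNF-α. Flt3 had 3 and 0, and Itgax had 2 and 7. Others had more counts in both libraries. Lyz2, Csf1r, Cd68 and Itgam had 114, 92, 83 and 50 counts in the control. With TNF-α they had 109, 81, 75 and 40. The leukocyte list summed to 14.7 CPM in the control and 21.0 CPM with TNF-α. For these sums the log2 ratio was 0.52 (95% counting interval 0.38 to 0.66). Cd14, with 276 and 756 counts, was called higher at 1.19. It was left out of a further sum after the values were seen. The other 16 markers summed to 378 and 364 counts, a log2 ratio of -0.31 (95% counting interval -0.53 to -0.10). Their part in the results on the family was not tested beyond these values. In RNA from whole cultures, fewer cells of a type and less RNA per cell cannot be told apart.

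Of the 44 members 33 reached 10 counts in sum, and 12 of these 33 were called higher with TNF-α and 1 lower. Among all genes tested 7.39% were called higher and 5.89% lower. The median log2 ratio of these 33 members was 0.71, and that of all genes tested was 0.0038. Of the 33, 5 reached the filter only through the TNF-α library (Tnfsf11, Tnfsf13b, Tnfsf9, Tnfrsf9 and Tnfrsf26), having under 10 counts in the control. All of these but Tnfsf9 had 2 to 4 control counts and would have missed the filter at equal levels. With at least 10 counts in the control there were 27 members, of which 9 were called higher and 1 lower, beside 4.87% of all such genes called higher. With at least 100 counts in sum there were 23 members, of which 6 were called higher and 0 lower, beside 4.77% higher and 3.59% lower among all 15122 such genes. The median log2 ratio of these 23 members was 0.49, and that of all such genes was -0.0007. Over all 44 members, counts scaled to library size were higher with TNF-α in 30, lower in 12 and 0 in both libraries in 2. The members just inside the 2-fold threshold and just outside it were Fas at a log2 ratio of 1.01 and Tnfrsf18 at 0.96.

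**Figure D1:**
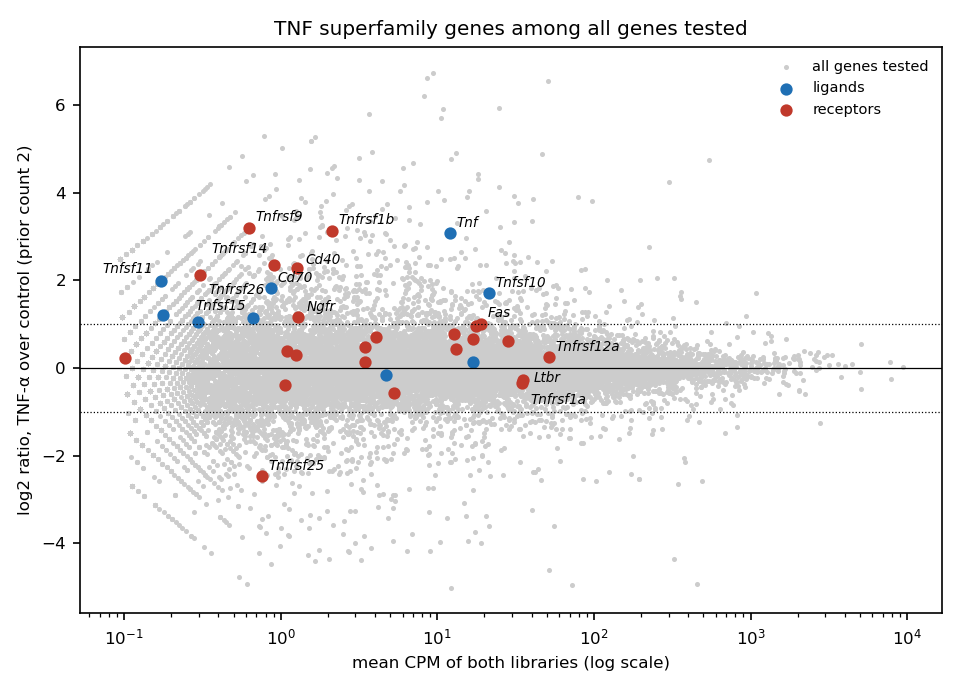
Log2 ratio of TNF-α over control (prior count 2) against the mean CPM of both libraries (log scale) for the 20771 genes tested, in grey, with the 9 ligands in blue and the 24 receptors in red. Dotted lines mark 2-fold. Tnf, Tnfrsf1b and Tnfrsf9 lie above a log2 ratio of 3, Tnfrsf25 is the member below -1, and Tnfrsf12a, Ltbr and Tnfrsf1a lie near 0 at the right.

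The ligands are taken first. Tnf, the gene of the added cytokine, was itself read at 112 counts in the control and 1156 with TNF-α. Its level per length (RPKM, reads per kilobase of exon, scaled to library size) was 1.53 in the control and 13.2 with TNF-α, 8.62-fold higher, with a log2 ratio of 3.09 (95% counting interval 2.83 to 3.40). Recombinant protein adds no RNA to a library. The gene lies on chromosome 17 of GRCm38 from 35199381 to 35202007 on the minus strand. Its rank by RPKM among the 17 ligands was 4 in the control and 1 with TNF-α, and its share of the summed ligand RPKM was 8.76% and 36.9%. Among the 15122 genes with at least 100 counts in sum its log2 ratio had rank 82 from the top.

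Tnfsf10 encodes TRAIL, a ligand that can trigger apoptosis through its death domain receptor. It had 445 counts in the control and 1759 with TNF-α, or 1.90 and 6.26 RPKM, a log2 ratio of 1.72 (95% counting interval 1.57 to 1.88). It lies on chromosome 3 from 27317028 to 27342427 on the plus strand. Together with Tnf it was one of the well counted ligands past 2-fold. Cd70, the ligand of Cd27 and known from activated lymphocytes, had 16 and 73 counts (0.426 and 1.62 RPKM), a log2 ratio of 1.82 (95% counting interval 1.14 to 2.81). Tnfsf15 (TL1A), the ligand of the receptor encoded by Tnfrsf25, had 18 and 50 counts (0.121 and 0.280 RPKM), a log2 ratio of 1.14 (95% counting interval 0.41 to 2.08).

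Tnfsf11, which encodes RANKL, had 2 counts in the control and 16 with TNF-α. The log2 ratio was 1.99 with a prior count of 2, and the 95% interval ran from 0.65 to 5.90. The levels of 0.020 and 0.134 RPKM were the second lowest among the 9 ligands tested. The call is lost when counts are halved for the interval, the setting for reads that were counted in pairs. RANKL is known as a target of progesterone in luminal cells, and 3 of the 8 luminal markers (Esr1, Pgr and Prlr) were called lower in the same libraries. Pgr, the progesterone receptor gene, had 7228 counts in the control and 2970 with TNF-α, a log2 ratio of -1.54. Its part in the value of Tnfsf11 was not tested.

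Tnfsf9, the ligand of the receptor encoded by Tnfrsf9, had 8 counts in the control and 22 with TNF-α. Its log2 ratio was 1.04 and its interval, from -0.02 to 2.58, held no change. Tnfsf13b, which encodes the B cell survival factor BAFF, had 4 and 14 counts, and its interval from -0.12 to 3.61 held no change either. Both passed 2-fold on the point value and were not called.

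The remaining ligands tested stood close to a ratio of 1. Tnfsf13, which encodes APRIL, had 722 counts in the control and 950 with TNF-α, a log2 ratio of 0.14 (95% counting interval -0.0050 to 0.28). It was the ligand with the highest level in the control, at 9.90 RPKM, and had 10.9 RPKM with TNF-α, so its share of the summed ligand RPKM was 56.6% in the control and 30.3% with TNF-α. Tnfsf12, which encodes TWEAK, had 221 and 235 counts (3.27 and 2.91 RPKM), a log2 ratio of -0.17 (95% counting interval -0.44 to 0.10). These neighbors on chromosome 11 share 60.0% and 48.3% of their exon bases with the read-through gene Tnfsfm13, and Tnfsf13 also shares 221 bases with Tnfsf13os on the opposite strand, so the split of reads between them is uncertain. Summed over the 17 ligands, the level was 17.5 RPKM in the control and 35.8 RPKM with TNF-α.

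The other 8 ligands did not reach 10 counts in sum. Lta, which encodes lymphotoxin-α, had 4 counts in each library, and Ltb, which encodes its membrane partner lymphotoxin-β, had 0 in the control and 6 with TNF-α. Tnfsf18, the ligand of Tnfrsf18, had 4 counts in the control and 0 with TNF-α. For Ltb and Tnfsf18 the counting interval of the ratio held no change. Tnfsf4, Tnfsf8, Tnfsf14 and Fasl had 0 to 2 counts in each library, and Cd40lg, known from activated T cells, had 0 in both. A count of 0 allows a level of up to 0.0673 CPM in the control and 0.0562 CPM with TNF-α. These are the levels of 3 counts. Transcripts below that can be missed at this depth, though some were read, such as Tnfsf11 in the control at 0.0449 CPM.

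**Figure D2:**
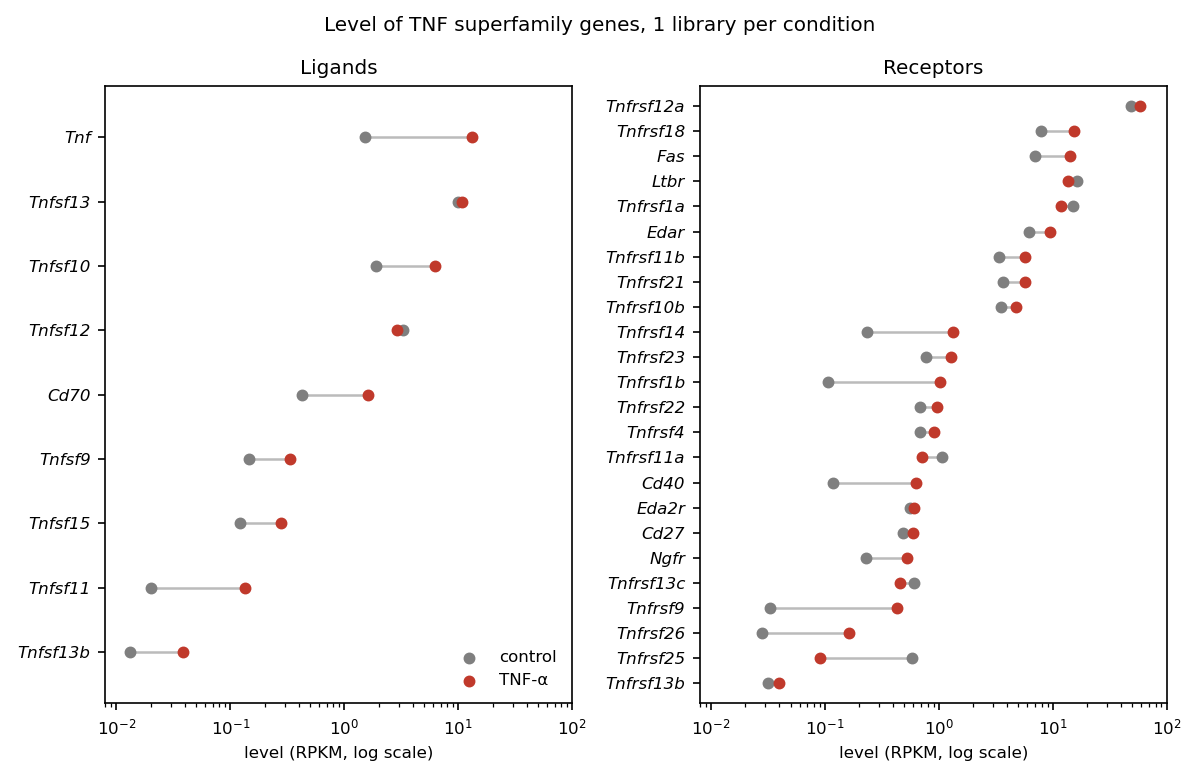
Level of the 33 members with at least 10 counts in sum, in RPKM on a log scale, for ligands (left) and receptors (right). Grey points are the control library and red points the TNF-α library, joined by a line. Tnf moves from 1.53 to 13.2 RPKM to the top of the ligands, and Tnfrsf12a leads the receptors in both libraries at 49.0 and 58.4 RPKM.

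Of the receptors, those of TNF-α itself differed from each other. Tnfrsf1b had 18 counts in the control and 207 with TNF-α, or 0.106 and 1.02 RPKM. It was 9.60-fold higher, a log2 ratio of 3.14 (95% counting interval 2.57 to 4.05), and had rank 79 from the top among the genes with at least 100 counts. Tnfrsf1a had 1729 counts in the control and 1623 with TNF-α, or 15.0 and 11.7 RPKM, a log2 ratio of -0.35 (95% counting interval -0.45 to -0.25). Of the counts on both receptor genes Tnfrsf1b took 1.03% in the control (95% Clopper-Pearson interval 0.612% to 1.62%) and 11.3% with TNF-α (9.90% to 12.9%). These intervals, which cover counting error only, did not overlap. In both libraries Tnfrsf1a had the higher level, and Tnfrsf1b made up 0.702% and 7.97% of their summed RPKM. Tnfrsf1b lies on chromosome 4 from 145213463 to 145246870, and Tnfrsf1a on chromosome 6 from 125349362 to 125362484.

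Among the receptors without a death domain, 4 of the 13 tested were called higher and 0 lower. Of all genes tested, 7.39% were called higher and 5.89% lower. Beside Tnfrsf1b the receptors called were Tnfrsf9, Tnfrsf14 and Cd40, all at low levels in the control. Tnfrsf9, a costimulatory receptor of T cells also called CD137, had 4 counts in the control and 62 with TNF-α (0.033 and 0.427 RPKM), a log2 ratio of 3.20 (95% counting interval 2.27 to 5.61). Tnfrsf14 encodes HVEM, a receptor of LIGHT (Tnfsf14) and of lymphotoxin-α. It had 12 and 82 counts (0.233 and 1.33 RPKM), a log2 ratio of 2.35 (95% counting interval 1.63 to 3.52). Cd40, best known as the B cell and antigen-presenting cell receptor of the T cell ligand Cd40lg, had 18 and 114 counts (0.119 and 0.627 RPKM), a log2 ratio of 2.29 (95% counting interval 1.68 to 3.21).

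The other 9 tested receptors of this kind were not called. Tnfrsf12a, the TWEAK receptor, had the highest level of the family in both libraries, with 2101 counts in the control and 3000 with TNF-α (49.0 and 58.4 RPKM). Its log2 ratio was 0.25 (95% counting interval 0.17 to 0.34), and it made up 36.1% of the summed RPKM of all members in the control and 31.6% with TNF-α. Tnfrsf18, which encodes GITR, had 533 and 1242 counts (7.85 and 15.3 RPKM), a log2 ratio of 0.96 (95% counting interval 0.81 to 1.11). That value is uncertain, since 27.2% of its exon bases overlap Gm16008 on the opposite strand, which had 446 and 1006 counts, and the sources do not say whether counting used the strand. Ltbr, the lymphotoxin-β receptor, had 1729 and 1711 counts (16.5 and 13.6 RPKM), a log2 ratio of -0.27 (95% counting interval -0.37 to -0.18). Tnfrsf11a, which encodes RANK, had 282 and 226 counts (1.06 and 0.708 RPKM), a log2 ratio of -0.57 (95% counting interval -0.84 to -0.32). For both Ltbr and Tnfrsf11a the interval lay below 0 and the value stayed within 2-fold.

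Eda2r, a receptor of ectodysplasin, had 146 counts in the control and 192 with TNF-α (0.556 and 0.611 RPKM), a log2 ratio of 0.13 (95% counting interval -0.18 to 0.46). Tnfrsf4 encodes the T cell receptor OX40, and had 42 and 66 counts (0.690 and 0.906 RPKM), a log2 ratio of 0.38 (95% counting interval -0.19 to 0.99). Cd27, a costimulatory receptor of lymphocytes, had 50 and 74 counts (0.482 and 0.596 RPKM), a log2 ratio of 0.30 (95% counting interval -0.23 to 0.85). Tnfrsf13c, the BAFF receptor gene, had 54 and 49 counts (0.601 and 0.455 RPKM), a log2 ratio of -0.39 (95% counting interval -0.99 to 0.19). Tnfrsf13b, which encodes the BAFF and APRIL receptor TACI, had 4 and 6 counts. For these 5 genes the interval held no change. Tnfrsf17, the B cell maturation antigen gene, had 0 counts in both libraries, Tnfrsf19 had 4 in each, and Tnfrsf8 had 0 in the control and 4 with TNF-α, with a counting interval that held no change.

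Of the 7 death domain receptors 2 were called higher and 1 lower, beside 7.39% higher and 5.89% lower among all genes tested. Fas, the receptor of Fas ligand and an inducer of apoptosis, had 563 counts in the control and 1362 with TNF-α (7.01 and 14.2 RPKM), a log2 ratio of 1.01 (95% counting interval 0.87 to 1.16) that lay just past the threshold. Ngfr, the neurotrophin receptor p75, had 35 and 96 counts (0.228 and 0.522 RPKM), a log2 ratio of 1.16 (95% counting interval 0.62 to 1.80). Tnfrsf25, which encodes the TL1A receptor DR3, had 59 counts in the control and 11 with TNF-α (0.581 and 0.091 RPKM). It was 6.42-fold lower with TNF-α, a log2 ratio of -2.47 (95% counting interval -3.76 to -1.74), and was the member called lower.

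Tnfrsf21 (DR6) had 587 and 1108 counts (3.63 and 5.73 RPKM), a log2 ratio of 0.66 (95% counting interval 0.51 to 0.80). Edar, the ectodysplasin receptor of hair follicle and gland development, had 1004 and 1838 counts (6.19 and 9.47 RPKM), a log2 ratio of 0.61 (95% counting interval 0.50 to 0.72). The TRAIL death receptor gene Tnfrsf10b had 500 and 813 counts (3.54 and 4.80 RPKM), a log2 ratio of 0.44 (95% counting interval 0.28 to 0.61). These 3 were within 2-fold, with intervals above 0.

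The 3 decoy receptors were likewise higher with TNF-α and within 2-fold. Tnfrsf11b encodes osteoprotegerin, the secreted decoy of RANKL. It had 422 counts in the control and 862 with TNF-α (3.36 and 5.73 RPKM), a log2 ratio of 0.77 (95% counting interval 0.60 to 0.94). Its share of the counts on the RANKL receptors Tnfrsf11a and Tnfrsf11b was 59.9% in the control (95% Clopper-Pearson interval 56.2% to 63.6%). With TNF-α it was 79.2% (76.7% to 81.6%). The 2 intervals cover counting error only and did not overlap. Of the summed RPKM of both genes, which allows for exon length, Tnfrsf11b made up 76.1% and 89.0%. Tnfrsf23 and Tnfrsf22, decoys of TRAIL in the mouse, had 137 and 269 counts (0.776 and 1.27 RPKM) and 128 and 216 counts (0.681 and 0.960 RPKM). Their log2 ratios were 0.71 (95% counting interval 0.41 to 1.02) and 0.49 (95% counting interval 0.17 to 0.82). Their joint share of the counts on both and Tnfrsf10b, the signalling TRAIL receptor, was 34.6% (31.3% to 38.1%) in the control. With TNF-α it was 37.4% (34.7% to 40.1%), and these intervals overlapped. Tnfrsf11b, with 422 and 862 counts, is also paired with TRAIL here and was left out of this share. Tnfrsf26, which was put in no group of receptors by kind, is the neighbor of Tnfrsf22 and Tnfrsf23 on chromosome 7 (143607659 to 143628722). It had 4 and 28 counts and a log2 ratio of 2.11 (95% counting interval 1.03 to 4.52). It shares 107 exon bases with E230032D23Rik on the opposite strand, which had 47 and 71 counts.

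**Figure D3:**
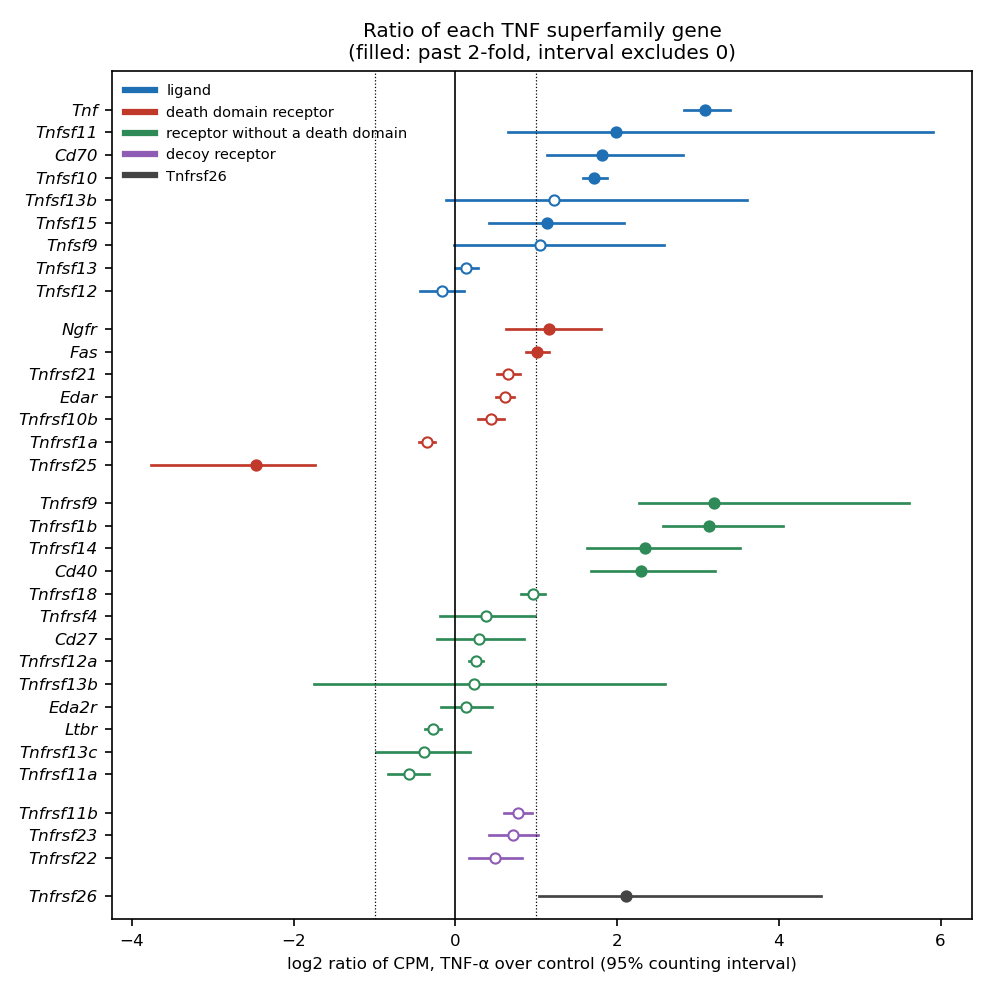
Log2 ratio of TNF-α over control (prior count 2) with the 95% counting interval for the 33 members tested, grouped by role. Filled points are called, dotted lines mark 2-fold, and the intervals leave out the spread between cultures. The interval of Tnfsf11, from 0.65 to 5.90, is wide, while those of Tnfrsf1a and Ltbr are narrow and lie below 0.

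**Figure D4:**
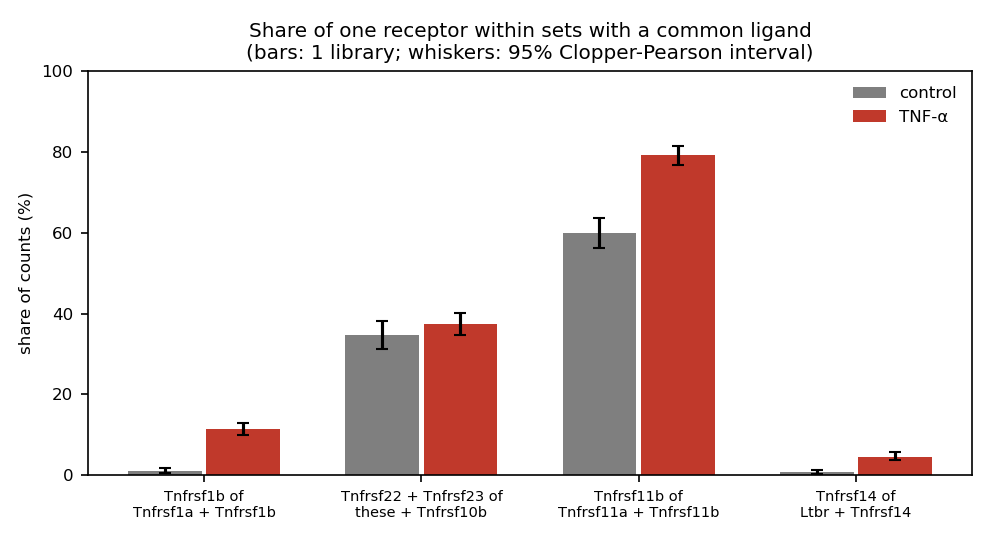
Share of the counts taken by the named receptor genes within sets that bind a common ligand, in percent, for the control (grey) and TNF-α (red) library, with 95% Clopper-Pearson intervals. The share of Tnfrsf1b goes from 1.03% to 11.3% and that of Tnfrsf11b from 59.9% to 79.2%. That of Tnfrsf14 within Ltbr and Tnfrsf14 goes from 0.689% to 4.57%, and by RPKM, which allows for exon length, from 1.39% to 8.88%. The TRAIL decoys Tnfrsf22 and Tnfrsf23 take 34.6% and 37.4% of the counts on both and Tnfrsf10b, with Tnfrsf11b left out.

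Ligands were then set beside their receptors in 28 textbook pairs. In 15 pairs both genes were tested, and in 1 of them, Tnf with Tnfrsf1b, both were called higher. For TRAIL the ligand was called higher (log2 ratio 1.72) while Tnfrsf10b, at 0.44, was not. For TL1A the values had opposite signs, 1.14 for the ligand Tnfsf15 and -2.47 for its receptor Tnfrsf25. The receptors Cd40, Tnfrsf14 and Fas were called higher while their ligands Cd40lg, Tnfsf14 and Fasl had 0 to 2 counts in each library. Lta, also paired with Tnfrsf14, had 4 counts in each. Cd70 was called higher and its receptor Cd27 (log2 ratio 0.30) was not. The reverse held for CD137, with the receptor Tnfrsf9 called and the ligand Tnfsf9 not.

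Many members lie side by side in the genome, and 22 of the 44 fall in 9 clusters with gaps of at most 200 kb. At most 1 member was called in each of these clusters. Tnfsf4, Tnfsf18, Ltb, Lta, Tnfsf14, Tnfsf8 and Tnfrsf8 were under 10 counts in sum and could not be called. Outside the cluster of Tnfsf14, this left at most 1 member that could be called in each of their clusters. In the 10.9 kb that hold Ltb, Tnf and Lta on chromosome 17 (35194439 to 35205351), Tnf had 1156 counts with TNF-α, Ltb 6 and Lta 4. In the cluster of Tnfsf9, Cd70 and Tnfsf14 (chromosome 17, 57105385 to 57194189), Cd70 was the one called. On chromosome 4, Tnfrsf1b had 207 counts with TNF-α and the adjacent Tnfrsf8 had 4. The cluster of Cd27, Ltbr and Tnfrsf1a on chromosome 6 (125232622 to 125362484) held 0 called members. Chromosome 4 held the most members, 9, of which 4 were called higher and Tnfrsf25 lower. Of these 9, Tnfsf8 and Tnfrsf8 were under the filter. Among all genes tested on any chromosome, 7.39% were called higher and 5.89% lower.

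Downstream of the receptors, a list of 54 genes of TNF receptor signalling, all of them tested, had 10 called higher and 1 lower, with a median log2 ratio of 0.14. Each had at least 100 counts in sum, and of all such genes 4.77% were called higher and 3.59% lower. The genes called higher were inhibitors and feedback genes of NF-κB (Nfkbia, Nfkbie, Tnfaip3 and Tnip1), NF-κB subunits (Nfkb2 and Relb), Traf1 and Birc3 of the receptor complex, and the necroptosis genes Ripk3 and Mlkl. Tnfaip3, which encodes the ubiquitin-editing inhibitor A20, had 743 counts in the control and 4875 with TNF-α, a log2 ratio of 2.45 (95% counting interval 2.34 to 2.57). Nfkbie had 331 and 2477 counts, the highest log2 ratio of the list at 2.64. Nfkbia had 2156 and 10342 counts. Birc3, Ripk3 and Mlkl had log2 ratios of 1.82, 1.77 and 1.55, and Tnip1, Relb, Nfkb2 and Traf1 had 1.46, 1.46, 1.27 and 1.17.

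Other genes of the list, chosen after their values were seen, were within 2-fold. The adaptors and kinase gene Tradd, Fadd and Ripk1 had log2 ratios of 0.09, 0.07 and 0.07, and the kinase subunits Chuk, Ikbkb and Ikbkg had -0.12, 0.14 and -0.08. Traf2, Traf3 and Casp8 had 0.80, 0.96 and 0.63, and Traf5 had -0.51. Eda, the ectodysplasin ligand of Edar and Eda2r, was the gene called lower, with 176 counts in the control and 99 with TNF-α, a log2 ratio of -1.07 (95% counting interval -1.46 to -0.73). By mean level per length Jun and Timp3 were the highest of the list, with log2 ratios of -0.71 and 0.20. Adam17, the protease that sheds TNF-α and its receptors, had 3484 and 6127 counts, a log2 ratio of 0.55 (95% counting interval 0.49 to 0.62).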

How the data were processed

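RNA-seq of 1 control and 1 TNF-α library was analyzed. The authors deposited read counts per gene, not normalized, with exon coordinates and summed exon length, in the layout of a featureCounts table. The series is titled a microarray, but its type and values are those of sequencing. The builds GRCm38 and mm10 are in the submitters' processing notes. The aligner, counter and strand setting are not given in the sources used here. Gene coordinates equalled those of GENCODE M21 for 35 of the 44 members. In the control 2172 genes had 2 counts and 618 had 1, an excess of even counts.

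From the counts, TMM scaling (TNF-α library 1.20 times the control), log2 ratios of CPM with a prior count of 2 and RPKM were computed with edgeR (version 4.0.16, R 4.3.3), Python 3.11.15, pandas 2.3.3 and scipy 1.17.1. A count of 10 is worth 0.224 CPM in the control and 0.187 CPM with TNF-α. With 1 library a condition, no quasi-likelihood test was run. Every member with at least 10 counts in sum is named with values, and of the signalling list those past 2-fold and the highest by level. Pgr, Ptprc, Lyz2, Csf1r, Cd68, Itgam, Itgax, Cd14, the keratins, Dcn, Col3a1, Oxtr and Adam17 were chosen after their values were seen. So were Tradd, Fadd, Ripk1, Chuk, Ikbkb, Ikbkg, Traf2, Traf3, Traf5 and Casp8. Members and lists were chosen with earlier results of these data known. The calls were tested on simulated data that held counting error only. Such data have no spread between cultures and no reads counted in pairs, so they cannot test the calls against either. Other scalings were upper quartile, size factors from DESeq2 (version 1.42.0) and totals, beside other filters, prior counts and folds, and halved counts. Promoters are from RefSeq.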

Additional observations from a re-analysis of the deposited data

How the results depend on the processing

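No paired analysis was possible because there was 1 culture with TNF-α and 1 without, with nothing to leave out. Of the members, 12 were called higher with prior counts of 0.5 and 5, without a filter, and under scaling by upper quartile, by totals or by DESeq2, and these were the same 12 genes. There were 11 with halved counts (Tnfsf11 lost), 9 with at least 1 CPM in a library (Tnfsf11, Tnfsf15 and Tnfrsf26 not called there, since they are below that level), 14 with no interval (Tnfsf9 and Tnfsf13b added) and 17 at 1.5-fold (Edar, Tnfrsf11b, Tnfrsf18, Tnfrsf21 and Tnfrsf23 added). Without members that overlap other exons, chosen after seeing the data, there were 11. Tnfrsf25 was called lower under each of these settings. The median of the members ranged from 0.61 to 0.77 where it was recomputed under these settings. For members with at least 100 counts in sum it was 0.49. Among all genes, 836 were higher and 658 lower with at least 1 CPM, and 2522 and 2130 at 1.5-fold, because fewer genes were tested or the threshold was lower. The 1535 higher and 1223 lower stayed within 1.5 times under the other settings. All 165 recomputed log2 ratios of single members, over 5 settings of scaling and prior count, stayed within their counting intervals. Counts under 30 in both libraries, as for Tnfsf11, Tnfsf13b, Tnfsf9 and Tnfrsf26, leave intervals over 2 log2 units wide, and the spread between cultures was not measured.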
